A study of Homo sapiens with 4 samples.

Results

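A set of 7 genes, among them myeloid and megakaryocyte surface receptors, stood lower in ADAR knockdown K562 cells than in their scrambled control. They encode the receptors CSF3R and FCGR2A, the integrin subunits ITGAM and ITGA2B, the cytokine CSF1, the chemokine CXCL16 and the signalling adaptor TRAF1. The members were chosen by symbol from the genes listed as lower in K562, so the same knockdown and control averages that are given below had selected them, and their direction is a description and not a test. All 7 were among the 942 distinct genes of the authors' deposited K562 table, and 0 of the 7 were among the 1409 of the HepG2 table. A gene missing from a table is unlisted there, which does not show that it was unaltered. The share of all listed K562 genes that were also in the HepG2 table was not computed. The 0 of 7 is therefore not read as a trait of the members.

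Granulocytes, monocytes and macrophages are told apart from other blood cells by the receptors on their surface. CSF3R binds granulocyte colony-stimulating factor, FCGR2A binds the constant part of IgG, and the integrin alpha M chain pairs with the beta 2 chain to bind complement fragments. ITGA2B is the alpha chain of the platelet fibrinogen receptor and a marker of the megakaryocyte lineage. K562 is a human erythroleukemia line from a chronic myeloid leukemia, known for erythroid and megakaryocytic properties under different inducers. HepG2 is a human hepatocellular carcinoma line.

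RNA was sequenced from K562 ADARkd cells, K562 control cells, HepG2 ADARkd cells and HepG2 control cells. Both knockdown lines carried a stably transfected plasmid with an siRNA against ADAR, the adenosine-to-inosine RNA editing enzyme, and both controls carried a scrambled siRNA from a plasmid. The siRNA had been picked as the most effective of several, per the labels, and no source used here says whether the cells were clones or pools. With 1 sample in each of the 4 groups, sequenced as 2 technical replicates, differences have no replicate check, no SD and no p-value. The authors' averages, whose unit is not named, are the values printed below, and folds are ratios of the averages after 1 was added to each. In bulk RNA, fewer cells of a type and less RNA per cell cannot be told apart.

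ADAR itself had an average of 131 in K562 ADARkd cells and 275 in K562 controls, which was 2.09-fold lower, and the direction matched the labels. In HepG2 it was 3.54-fold lower. Of the K562 genes, 582 were lower and 360 higher in the knockdown, so 61.8% of the listed genes were lower by at least 2-fold. In HepG2 that share was 45.0%. The K562 table held only genes past 2-fold, the library depth is unknown, and the balance of directions depends on how the libraries were scaled: with the knockdown averages multiplied by 1.5, 28.7% of the genes still past 2-fold would be lower, and with them divided by 1.5, 87.7% would be. These scalings move the median log2 ratio of the listed genes from -1.09 to -0.54 and -1.63. Genes that would newly pass 2-fold under either scaling are unlisted, so they are missing from these shares and medians. The labelled cell type could not be checked on this table, since 0 of 45 erythroid genes and 0 of 26 lymphoid genes were listed in it.

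CSF3R (ENSG00000119535, chromosome 1), the receptor that carries the granulocyte growth and survival signal, had the largest difference of the set. Its average was 14 in K562 ADARkd cells and 42 in K562 controls. The knockdown value was 33.3% of the control value, and the log2 difference was -1.52, or 2.87-fold lower. FCGR2A (ENSG00000143226, chromosome 1), the low-affinity IgG receptor also called CD32, averaged 62 in K562 ADARkd cells and 152.5 in K562 controls. The log2 difference was -1.28, or 2.44-fold lower, and 40.7% of the control value remained. In GENCODE release 29, 9.97% of the 76-base stretches of FCGR2A transcripts, a length equal to the reads, also occurred in other genes. FCGR2C shared 8.25% and FCGR2B 1.55% of them, and a noncoding transcript that runs through FCGR2A on the same strand shared 3.81%. How the authors assigned such reads is not given in the sources used here, so the FCGR2A value is uncertain, by an amount that was not measured. FCGR2B and FCGR2C were unlisted in both tables.

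**Figure D1:**
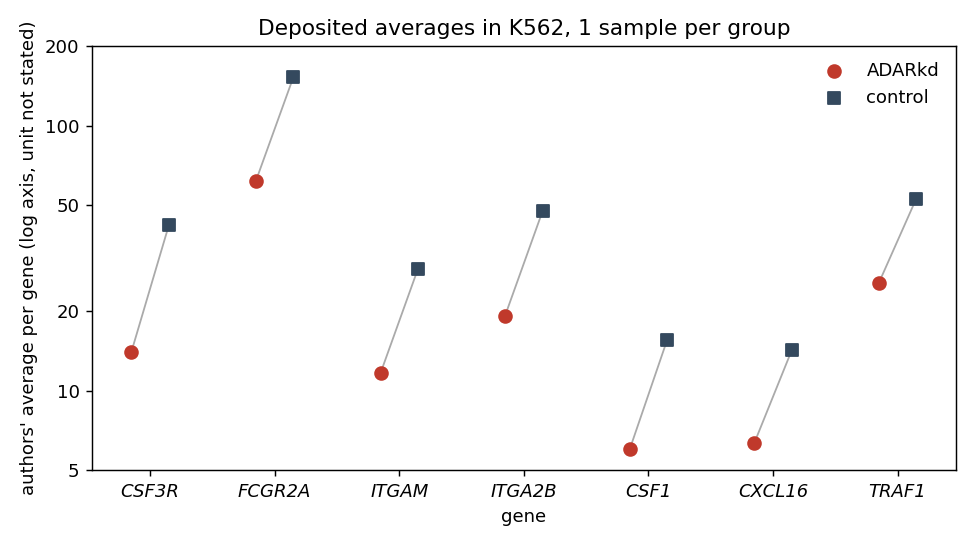
The authors' averages for the 7 genes in K562 ADARkd cells (red circles) and K562 controls (dark squares), on a log axis, with 1 sample per group and a line joining each pair. The knockdown average lies below the control average for each gene, with CSF3R at 14 against 42 and TRAF1 at 25.5 against 53.

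Promoter sequence from RefSeq on GRCh38.p14 is shown for the 3 myeloid receptor genes, because each has a window with the short core motif of PU.1, a transcription factor of the myeloid lineage. That motif is common, in 27.9% of all promoter windows of this length, and the windows are shown for holding it. The other CSF3R window, at the outer start, has no PU.1 match and is not printed. Each window runs from 250 bases before an annotated start to 50 bases after it and is read 5′ to 3′ on the strand of the gene. Capitals mark matches on either strand to GAGGAA for PU.1, AGATAA for the GATA family and TGTGGT for the RUNX family.
CSF3R, chr1:36482864-36483163, minus strand: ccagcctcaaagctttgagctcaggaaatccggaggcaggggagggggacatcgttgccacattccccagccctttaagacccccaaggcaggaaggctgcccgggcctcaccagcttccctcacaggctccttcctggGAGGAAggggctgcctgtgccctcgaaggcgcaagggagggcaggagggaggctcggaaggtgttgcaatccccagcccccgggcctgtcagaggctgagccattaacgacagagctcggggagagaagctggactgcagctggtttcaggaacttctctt
FCGR2A, chr1:161505207-161505506, plus strand: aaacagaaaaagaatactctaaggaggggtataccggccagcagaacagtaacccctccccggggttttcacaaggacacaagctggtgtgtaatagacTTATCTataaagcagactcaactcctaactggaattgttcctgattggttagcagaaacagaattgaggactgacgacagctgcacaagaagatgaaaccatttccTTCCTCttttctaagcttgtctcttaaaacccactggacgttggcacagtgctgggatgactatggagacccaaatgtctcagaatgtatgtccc
ITGAM, chr16:31259725-31260024, plus strand: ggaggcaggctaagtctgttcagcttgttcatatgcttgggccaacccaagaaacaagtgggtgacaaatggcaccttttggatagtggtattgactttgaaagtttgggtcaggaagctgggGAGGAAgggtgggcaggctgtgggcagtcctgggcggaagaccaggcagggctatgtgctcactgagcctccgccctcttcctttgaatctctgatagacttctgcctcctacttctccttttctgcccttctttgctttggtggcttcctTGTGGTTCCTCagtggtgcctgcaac
In the CSF3R window the PU.1 match begins 111 bases before the start, which is the inner of 2 annotated starts of that gene. In the FCGR2A window a GATA match begins 151 bases and a PU.1 match 45 bases before the start. ITGAM has a PU.1 match 127 bases before its start, and, after the start, a RUNX match and a PU.1 match that overlap by 1 base and appear as a single run of capitals.

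ITGAM and ITGA2B differed between knockdown and control by nearly the same factor. ITGAM (ENSG00000169896, chromosome 16), the alpha chain of complement receptor 3 and the antigen CD11b of granulocytes and macrophages, averaged 11.6 in K562 ADARkd cells and 28.8 in K562 controls. That was a log2 difference of -1.24, or 2.36-fold lower. ITGA2B (ENSG00000005961, chromosome 17), which is CD41 of megakaryocytes and platelets, averaged 19.2 in K562 ADARkd cells and 47.5 in K562 controls, with a log2 difference of -1.26, or 2.40-fold lower. The knockdown kept 40.4% of the control value for both integrin genes. Their beta partners, ITGB2 for ITGAM and ITGB3 for ITGA2B, were unlisted in both tables. No 76-base stretch of either gene's transcripts occurred in a transcript of another gene.

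The cytokine and the chemokine of the set had control averages close to the floor of the table, the smallest value that a gene's larger average takes. CSF1 (ENSG00000184371, chromosome 1), the growth factor of monocytes and macrophages, averaged 6 in K562 ADARkd cells and 15.5 in K562 controls, a log2 difference of -1.24, or 2.36-fold lower. CXCL16 (ENSG00000161921, chromosome 17), a membrane-bound chemokine and scavenger receptor that binds CXCR6, averaged 6.33 in K562 ADARkd cells and 14.2 in K562 controls, a log2 difference of -1.05, or 2.07-fold lower. That floor was 13.8. CXCL16 overlaps MED11 on the opposite strand in the annotation, but 0.359% of its 76-base stretches were in that gene, and MED11 was unlisted.

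TRAF1 (ENSG00000056558, chromosome 9), an adaptor of tumor necrosis factor receptors and an NF-kB target, was the member nearest to the 2-fold threshold. It averaged 25.5 in K562 ADARkd cells and 53 in K562 controls, a log2 difference of -1.03, or 2.04-fold lower, and the knockdown kept 48.1% of the control value. Genes just outside the threshold are not in the table and were not analysed here.

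Log2 differences of the members ran over a span of 0.49, with a median of -1.24, or 2.36-fold lower. Their averages are not ranked against each other as levels, because they are not stated to be per length. The median over the 582 genes listed as lower was -1.28, and 4 of the 7 members, FCGR2A, ITGA2B, CSF1 and ITGAM, lay within 0.05 of it. CSF3R had 26.5% of the lower genes below it in log2 difference, CXCL16 had 90.7% and TRAF1 had 95.4%. CSF3R was the 1 member lower by 2.5-fold or more, as were 45.4% of the 582 lower genes and 28.0% of all listed genes. At 3-fold there were 0 members, 23.0% of the lower genes and 14.2% of all listed genes. These counts of members depend on the added 1: without it, CSF3R was 3-fold and CSF1 2.58-fold lower. Against ADAR, 5 of the 7 members had the larger fold in K562, and CXCL16 and TRAF1 had the smaller. For CXCL16 that order rests on the added 1. As plain ratios, the knockdown kept 44.7% of the control value for CXCL16 and 47.6% for ADAR, so CXCL16 then had the larger fold. These positions describe genes that had been selected on the same contrast.

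**Figure D2:**
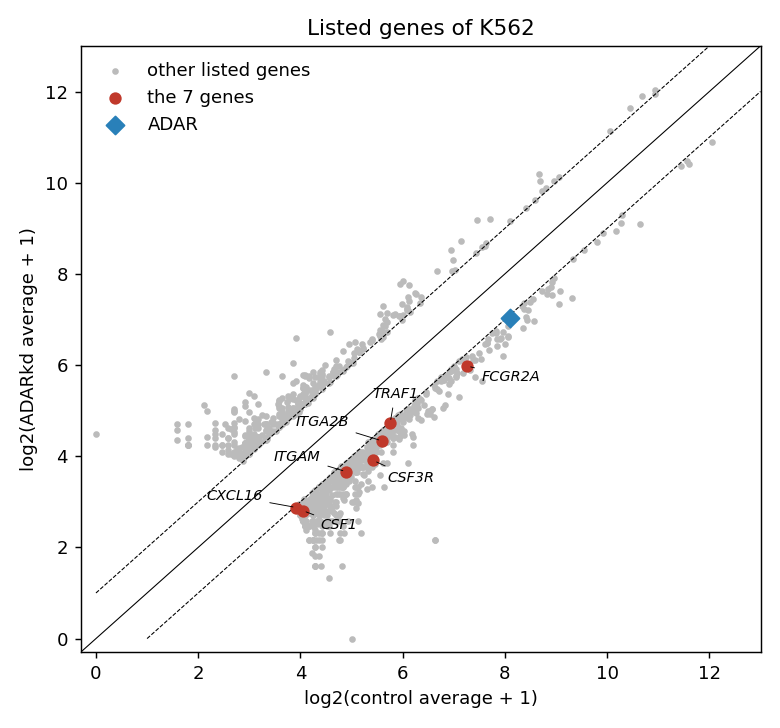
Knockdown against control averages of the 942 listed K562 genes, as log2 of the average plus 1, with 1 sample per group. The solid line is equality and the dashed lines are 2-fold; the 7 genes (red) lie in the lower band, where TRAF1 and CXCL16 sit close to the dashed line and FCGR2A lies farthest up the band.

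**Figure D3:**
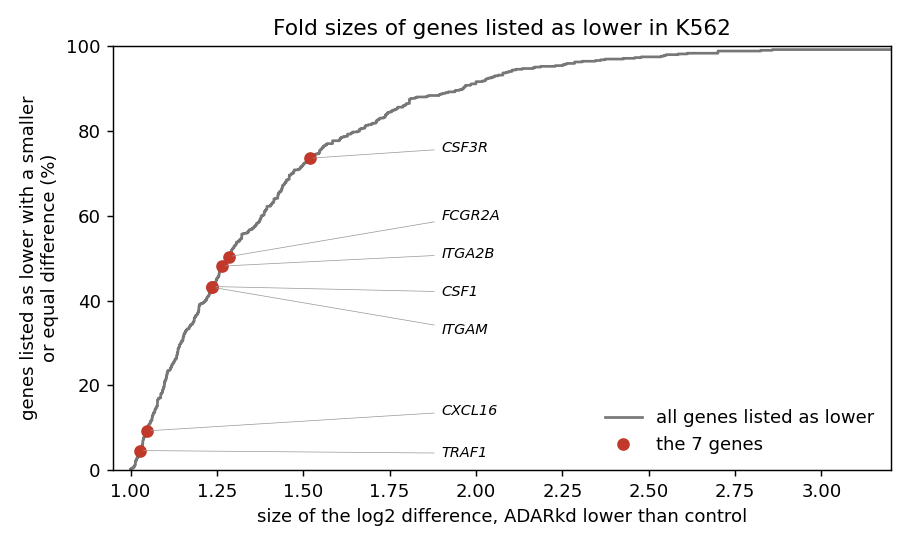
Cumulative share of the 582 genes listed as lower in K562 (grey line, percent) by the size of the log2 difference, with the 7 genes as red points; the axis ends before the largest differences. CSF3R, at 1.52, lies highest on the curve, 4 members lie near its middle, and CXCL16 and TRAF1 lie near the 2-fold end.

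Other genes of the same systems were listed beside the members in K562. The 11 lists of related genes, with 367 symbols in all, had 15 listed in K562, of which 14 were lower and 1 was higher in the knockdown. Without the 7 members, 8 were listed, 7 lower and 1 higher. Of all listed K562 genes 61.8% were lower, and of the 410 protein-coding ones 70.7%. The lists were drawn up with earlier results of these data known, so these counts are descriptions. How many genes were measured in all is not given in the sources used here. No share over all genes can therefore be set beside the counts of listed genes, here or for the single lists below.

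Of 27 genes of the colony-stimulating factor and early cytokine system, CSF3R, CSF1 and FLT3LG were listed, and all 3 were lower. FLT3LG, the ligand of the FLT3 receptor of early progenitors, averaged 5.5 in K562 ADARkd cells and 24.75 in K562 controls, a log2 difference of -1.99. CSF3, the ligand of CSF3R, and CSF1R, the receptor of CSF1, were unlisted in both lines. Of 23 genes of Fc gamma receptors and their signalling partners, FCGR2A alone was listed. Of 57 myeloid genes, the 3 listed were the members CSF3R, FCGR2A and ITGAM, and markers such as CD14, CD33, MPO and SPI1 were unlisted.

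Of 34 integrin genes and their activators, ITGA6 was listed in K562 besides ITGAM and ITGA2B. ITGA6, an alpha chain of laminin receptors, averaged 6.75 in K562 ADARkd cells and 20.5 in K562 controls, a log2 difference of -1.47. Of 37 megakaryocyte and platelet genes, ESAM was listed besides ITGA2B. ESAM, an adhesion molecule of endothelial cells and platelets, averaged 12.5 in K562 ADARkd cells and 36.5 in K562 controls, a log2 difference of -1.47. GP1BA, GP9, PF4 and VWF were unlisted in K562, so 2 genes of the megakaryocyte list were listed there.

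Of 30 older and current symbols of CXC chemokines, their receptors and sheddases, CXCL16, IL8, CXCR4 and ADAM17 were listed in K562 and were lower. IL8, the neutrophil chemoattractant, averaged 8.75 in K562 ADARkd cells and 38.5 in K562 controls, a log2 difference of -2.02. CXCR4, the receptor of CXCL12, averaged 7 in K562 ADARkd cells and 16 in K562 controls, a log2 difference of -1.09. ADAM17, a metalloprotease that releases proteins from the cell surface, averaged 157 in K562 ADARkd cells and 322 in K562 controls, a log2 difference of -1.03. CXCR6, the receptor of CXCL16, was unlisted in both lines.

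Of 63 genes of TNF receptor-associated factors and NF-kB signalling, 3 were listed in K562, and the 2 TRAF genes among them had opposite directions. TRAF6, a ubiquitin ligase of interleukin-1 and Toll-like receptor signalling, averaged 59.5 in K562 ADARkd cells and 24.25 in K562 controls, a log2 difference of 1.26. It stands against the -1.03 of TRAF1. CD70, a ligand of the TNF family, averaged 7 in K562 ADARkd cells and 19.5 in K562 controls, a log2 difference of -1.36. None of the 31 hematopoietic transcription factors was listed in K562, GATA1, SPI1 and RUNX1 included.

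**Figure D4:**
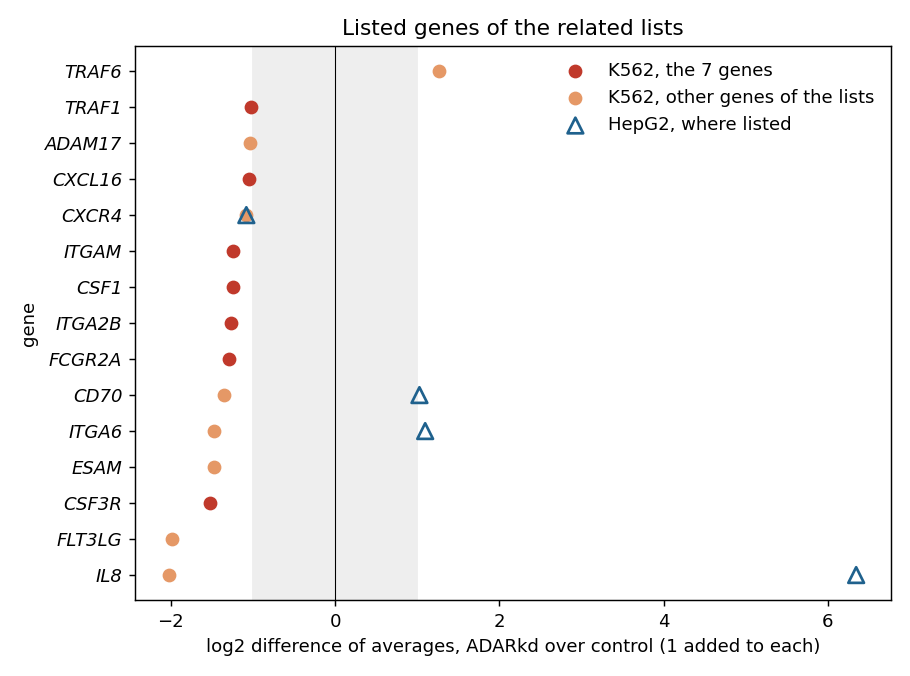
Log2 difference of ADARkd over control averages for the 15 genes of the related lists that were listed in K562 (circles; the 7 genes in red), with open triangles for HepG2 where the gene was listed there too. The grey band marks differences under 2-fold, which the tables leave out; TRAF6 is the 1 gene higher in K562, and ITGA6, IL8 and CD70 lie on opposite sides in the 2 lines.

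In HepG2, where no member was listed, 30 genes of the same lists were listed, of which 27 were higher and 3 lower in the knockdown, beside 45.0% lower over all 1409 listed HepG2 genes. Among them were 10 of the 63 TNF receptor and NF-kB genes, all higher, and 6 integrin genes, of which 5 were higher and ITGB5 was lower. ITGA6, CXCR4, IL8 and CD70 were listed in both lines. CXCR4 averaged 155 in HepG2 ADARkd cells and 329 in HepG2 controls, a log2 difference of -1.08, so it was lower in both lines. ITGA6 averaged 80.3 in HepG2 ADARkd cells and 37 in HepG2 controls, a log2 difference of 1.10. Differences between the lines were not tested.

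For each member, the listed K562 gene with the most similar pair of averages was looked up. Over 439 other listed symbols and the 2 averages, the nearest to CSF3R by Euclidean distance in log2 was C16ORF11, at 0.058, and the nearest to FCGR2A was PHLDA1, at 0.17. FIBCD1 was nearest to ITGAM (0.076), CDK5R2 to ITGA2B (0.050), KRCC1 to CSF1 (0.043), NEO1 to CXCL16 (0.023) and SEMA6B to TRAF1 (0.022). Likeness over 2 values says only that knockdown and control averages were near.

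A neighbour of a member in the genome was listed with it. HSPA6, a heat-inducible HSP70 chaperone gene that lies next to FCGR2A on the same strand, within 2000 bases, averaged 30 in K562 ADARkd cells and 75.5 in K562 controls, a log2 difference of -1.30, or 2.47-fold lower. The difference for FCGR2A was -1.28. No transcript of HSPA6 shared a 76-base stretch with FCGR2A, and the gene was unlisted in HepG2. Whether the 2 differences are linked was not tested. No other gene within that distance of a member was listed.

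The table of promoters held windows for 5 members, namely CSF3R (2 windows), FCGR2A, ITGAM, ITGA2B and TRAF1 (3 windows); CSF1 and CXCL16 had no entry. On either strand, the PU.1 motif GAGGAA was in 3 of the 8 windows and in 27.9% of all 35116 windows of the same length. AGATAA was in 2 of 8 and in 10.3% of all, namely in FCGR2A and in the innermost TRAF1 window. TGTGGT was in 3 of 8 and in 13.1% of all, in CSF3R, ITGAM and TRAF1. A loose NF-kB pattern, of 3 G, 5 bases of any kind and 2 C, was in 7 of 8 and in 58.7% of all. The TATA box TATAAA was in 2 of 8 and in 11.5% of all. The C/EBP palindrome TTGCGCAA (0.151% of all) and the AP-1 motif TGACTCA (4.95% of all) were in 0 of 8. The ITGA2B window held the NF-kB pattern and none of the other motifs. Matches to such short letters are descriptions of the windows.

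**Figure D5:**
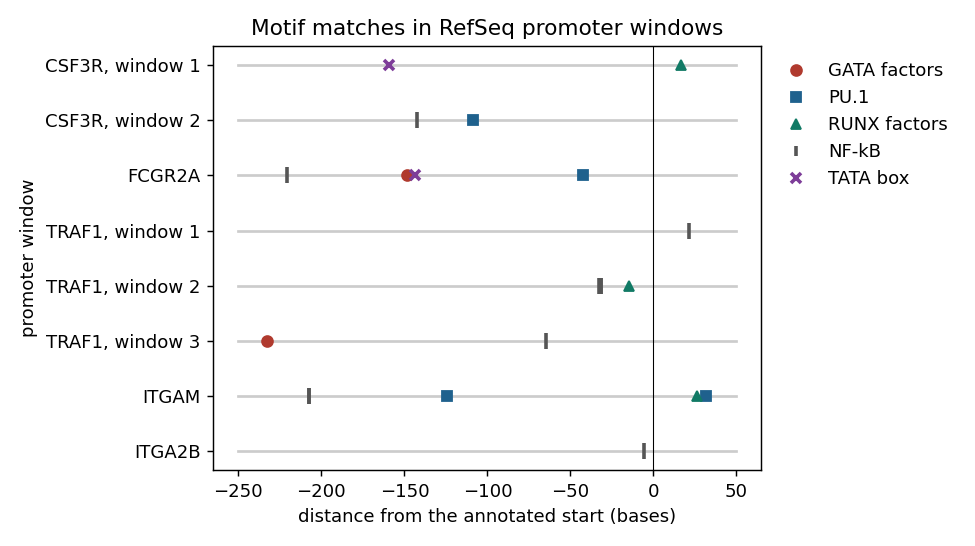
Positions of motif matches in the 8 RefSeq promoter windows of 5 members, in bases from the annotated start at 0, with 250 bases before and 50 after it. PU.1 matches (blue squares) lie in a window of CSF3R, in FCGR2A and, as 2 matches, in ITGAM; the ITGA2B window shows the NF-kB pattern alone.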

How the data were processed

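Total RNA of ADAR knockdown and scrambled control cells of the HepG2 and K562 lines was sequenced in read pairs of 76 bases, per the labels' protocols. TopHat, SAMtools and hg19 are named in the submitters' processing notes; for the counter, the annotation, strand use and depth scaling the entry is: not given in the sources used here. Per the file headers, the deposited tables hold an average per gene and group, treated as a signal of unknown unit, for genes past 2-fold. The averages were whole numbers over a divisor that differed between genes: within 1e-06, 99.7% of K562 rows gave whole numbers at a multiplier of up to 40. With 1 added to both averages, their log2 ratio gave the deposited log2 fold, and their ratio gave the fold that the authors deposited with a minus sign for lower genes, here called a score.

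Folds were recomputed with the pseudocount of 1, which understates differences of low genes. Of rows with a repeated symbol, the one with the highest mean was kept. Members and lists were chosen with earlier results of these data known. Named genes were the members, ADAR, listed genes of the related lists, genes next to a member and the gene nearest to each member; the other genes in the closing observations were picked after their values were seen. Names, types and neighbours came from GENCODE release 29 on GRCh38 by identifier (840 of 945 K562 rows matched), and its transcripts were searched for shared 76-base stretches. Promoters and their coordinates are RefSeq's on GRCh38.p14. With 1 sample per group no test was run. The software was matplotlib 3.10.9, scipy 1.17.1, pandas 2.3.3 and numpy 2.4.6 under Python 3.11.15; the functions were checked on simulated tables.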

Additional observations from a re-analysis of the deposited data

Results flagged for a closer look

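Genes of the related lists that were listed in both lines with opposite directions were picked out; no member was among them, and the difference between the lines was not tested. ITGA6 had a log2 difference of -1.47 in K562 and 1.10 in HepG2. IL8 had -2.02 in K562 and 6.35 in HepG2. CD70 had -1.36 in K562 and 1.03 in HepG2.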

How the results depend on the processing

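Depth is unknown and each group has 1 sample, so the low averages of CSF1 and CXCL16 have no stated precision. A smaller pseudocount or smaller knockdown averages can only enlarge the fold of a lower gene, so the next outcome was fixed in advance. The 7 members stayed lower by 2-fold or more with a pseudocount of 0 or 0.1 and with knockdown averages divided by 1.5. With a pseudocount of 10, 2 members (CSF3R and FCGR2A) did, with a median log2 difference of -0.84. With knockdown averages multiplied by 1.5, 0 did (median -0.70). Scaled to a median log2 ratio of 0 over the listed genes, 0 did (median -0.20), and TRAF1 turned to 0.038. Every listed gene is past 2-fold and most are lower, so the median over them, -1.09, lies among the lower genes. By construction, this scaling takes about that much from the difference of each lower gene, and it does not show how the libraries should be scaled. The share of lower genes below the members' median was 56.7%, against 52.4% over protein-coding genes, 50.7% over genes whose larger average reached the table's lower quartile (5 members), 44.4% over those reaching its median (4 members) and 50.7% with a pseudocount of 10 (2 members). With a 3-fold threshold, or with knockdown averages multiplied by 1.5, no member was left for that share. List genes lower in K562 numbered 14, against 2 at 3-fold, 2 with knockdown averages multiplied by 1.5 and 7 without the members, a count added after seeing the data. Where the cause is not the construction of the setting, it was not tested. No paired analysis was possible because each group has 1 sample and no test was run.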

Other observations

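Other genes found in blood cells were in the K562 table too, and those here were chosen after their values were seen. Of 5 listed symbols made of CD and a number, 4 were lower and 1 was higher in the knockdown. Over all listed K562 genes 61.8% were lower, and over the protein-coding ones 70.7%, and 5 symbols are too few to compare with either. CD53, a tetraspanin of leukocytes, averaged 366.25 in K562 ADARkd cells and 748.5 in K562 controls, 2.04-fold lower. CD48, an adhesion ligand of leukocytes, averaged 9.5 in K562 ADARkd cells and 28.5 in K562 controls, 2.81-fold lower. CD83, a surface protein of mature dendritic cells, averaged 9 in K562 ADARkd cells and 23 in K562 controls, 2.40-fold lower, and it was 3.45-fold lower in HepG2. CD70 is described above, and CD58, the ligand of CD2, was higher, with 266.5 in K562 ADARkd cells and 124.25 in K562 controls.

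C3AR1, the receptor of the complement fragment C3a, averaged 25.25 in K562 ADARkd cells and 58.25 in K562 controls, 2.26-fold lower. LCP2, an adaptor of immune receptor signalling, averaged 10 in K562 ADARkd cells and 25.75 in K562 controls, 2.43-fold lower. LITAF averaged 30.75 in K562 ADARkd cells and 91.6 in K562 controls, 2.92-fold lower. HSH2D, an SH2-domain adaptor of hematopoietic cells, went the other way, with 17 in K562 ADARkd cells and 6.5 in K562 controls, 2.40-fold higher.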
